A study of Mus musculus with 18 samples.

Results

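H3K27me3 over 31 genes that encode subunits of the Polycomb repressive complexes was examined in single mouse headfolds at embryonic day 8.5, out of 21887 protein-coding genes in all. The 31 genes were taken from a list of subunits at their mm10 positions. They comprise 6 core subunits of PRC2, 8 accessory subunits of PRC2, 9 subunits of canonical PRC1, 6 of variant PRC1 and the 2 RING subunits that every PRC1 contains. A gene was called marked in a library when at least 1 bp of a deposited peak lay within the gene or 1 kb to either side.

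PRC2 trimethylates histone H3 at lysine 27 and PRC1 monoubiquitinates histone H2A, and both keep developmental genes silent in cells that do not use them. The EED subunit of PRC2 and the CBX subunits of canonical PRC1 bind the H3K27me3 mark. Genes of Polycomb subunits can themselves lie under the mark, so peak lists show which subunits' own genes are covered in a tissue.

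All embryos were Gulo-/-, which lack the last enzyme of vitamin C synthesis and depend on supply through the dam. The 4 groups were B6 embryos without vitamin C, B6 embryos with vitamin C, 129 embryos without vitamin C and 129 embryos with vitamin C, each with 3 libraries. Supplemented dams drank water with 3.3 g/l vitamin C and the others received none. The assay was CUT&Tag, in which an antibody-guided transposase cuts next to the mark, with 1 whole headfold per reaction and 2 female embryos and 1 male embryo in each group. Of 18 samples in the series, 4 IgG controls and 2 further B6 H3K27me3 samples were not analysed here. The 3 B6 embryos with vitamin C carry 1 pregnancy code, and library numbers run with background, so background and library batch cannot be told apart.

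The lists held 748 to 4726 peaks, covered 3.58 to 31.7 Mb and marked 2.97 to 17.1% of protein-coding genes, and the sequencing depth behind them is unknown. Any 2 lists shared at most 11 identical peaks, so no list was a copy of another. Median peak width ran between 1322 and 8449 bp, and was under 2 kb in 2 B6 libraries. Among markers of the dissected tissue, the neural plate genes Sox1, Sox3, Otx2, Sox2 and Hesx1 were marked in 10, 6, 3, 2 and 0 of 12 libraries. Genes of heart (Nkx2-5, Tbx5, Hand2) were marked in all 12, Foxa2 and Sox17 of endoderm in 11 each, and the muscle genes Myod1 and Myf5 in 12 and 0. A mark over a gene is not a measure of its expression.

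Most Polycomb genes carried no peak. Of the 31 genes, 10 (32.3%) were marked in at least 1 library, against 20.2% of all protein-coding genes, and 6 (19.4%) in at least 4 libraries, against 13.1%. Marking in at least 10 libraries was found for Cbx8 and Phf19 (6.45%), against 5.93% of all genes, so at that level the share was near the background. In a whole headfold, fewer cells with the mark and less mark per cell cannot be told apart. In all 12 libraries only Cbx8 was marked, against 2.18% of all genes. With flanks of 2.5 kb Bmi1 and Pcgf1 also reached 10 libraries (12.9% of members), against 6.22% of all genes. Phf19 was lost when only peaks at or above the median maximum of their list counted, and when lists were cut to equal length, which left 1 member, against 2.78% and 2.15% of all genes. The median was 0 marked libraries for the 31 genes and 0 for all genes, and the mean was 1.74 and 1.25 libraries.

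No PRC2 core or RING gene was marked in any library, and the marked genes were accessory or PRC1 subunits. With 20.2% of all genes marked at least once, counts of 0 among so few genes are near the background, and differences between complexes were not tested. Marked genes numbered 0 of 6 in the PRC2 core, 3 of 8 among PRC2 accessory subunits, 4 of 9 in canonical PRC1, 3 of 6 in variant PRC1 and 0 of 2 among the RING genes. Cbx8 was marked in 12 libraries, Phf19 in 10, Pcgf1 and Pcgf5 in 7 each, Bmi1 in 6, Epop in 4, Jarid2 in 3, Phc2 and Pcgf3 in 2 each and Cbx7 in 1. The other 21 genes were at 0 in all 12 libraries.

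**Figure D1:**
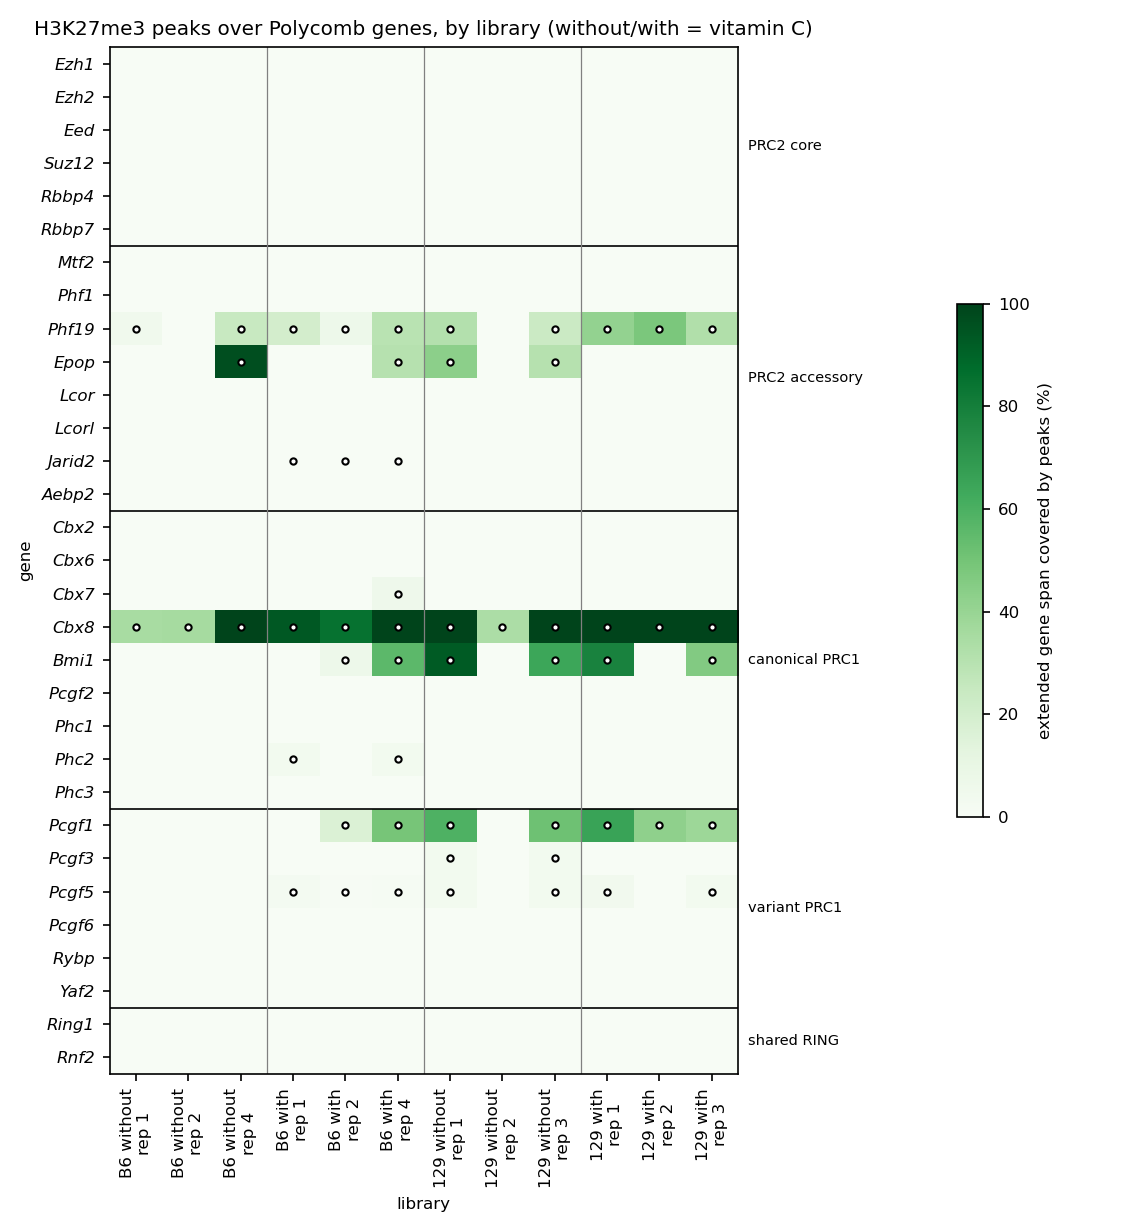
Percent of each gene and its 1 kb flanks covered by peaks (colour), with a dot where a gene is marked, 1 row per gene and 1 column per library in the order B6 without, B6 with, 129 without and 129 with vitamin C. Cbx8 is covered in all 12 columns, Phf19 in 10, and the rows of the PRC2 core and RING genes are empty.

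Promoter sequences from RefSeq (GRCm38.p6, the assembly that mm10 stands for) are shown for the genes marked in at least 10 libraries, Cbx8 and Phf19. Those of Pcgf5, marked in 7, and Ezh2, marked in 0, were added for contrast after their values were seen. Each runs 5′ to 3′ over 300 bases around the annotated start, with CG dinucleotides in capitals. The Cbx8 promoter lies at chr11:119040864-119041163 on the minus strand, that of Phf19 at chr2:34913927-34914226 on the minus strand, that of Pcgf5 at chr19:36348079-36348378 on the plus strand and that of Ezh2 at chr6:47594981-47595280 on the minus strand.
Cbx8: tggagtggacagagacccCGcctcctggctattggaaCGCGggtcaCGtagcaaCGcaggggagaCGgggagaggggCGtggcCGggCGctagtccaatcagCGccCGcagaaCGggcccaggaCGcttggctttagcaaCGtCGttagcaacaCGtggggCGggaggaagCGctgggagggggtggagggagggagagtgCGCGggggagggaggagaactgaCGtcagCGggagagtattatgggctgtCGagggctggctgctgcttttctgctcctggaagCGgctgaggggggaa
Phf19: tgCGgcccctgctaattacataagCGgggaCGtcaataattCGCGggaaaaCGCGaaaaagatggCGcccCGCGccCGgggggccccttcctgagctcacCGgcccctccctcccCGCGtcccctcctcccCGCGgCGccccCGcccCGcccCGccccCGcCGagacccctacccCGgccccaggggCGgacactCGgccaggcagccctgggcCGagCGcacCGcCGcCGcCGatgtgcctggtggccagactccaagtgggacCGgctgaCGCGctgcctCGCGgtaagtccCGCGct
Pcgf5: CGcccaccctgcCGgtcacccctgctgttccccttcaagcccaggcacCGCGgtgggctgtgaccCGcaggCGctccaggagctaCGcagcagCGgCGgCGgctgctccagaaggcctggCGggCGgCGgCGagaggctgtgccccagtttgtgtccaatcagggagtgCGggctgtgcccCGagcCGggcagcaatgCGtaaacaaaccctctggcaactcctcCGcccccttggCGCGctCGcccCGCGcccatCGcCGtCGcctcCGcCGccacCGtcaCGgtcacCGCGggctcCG
Ezh2: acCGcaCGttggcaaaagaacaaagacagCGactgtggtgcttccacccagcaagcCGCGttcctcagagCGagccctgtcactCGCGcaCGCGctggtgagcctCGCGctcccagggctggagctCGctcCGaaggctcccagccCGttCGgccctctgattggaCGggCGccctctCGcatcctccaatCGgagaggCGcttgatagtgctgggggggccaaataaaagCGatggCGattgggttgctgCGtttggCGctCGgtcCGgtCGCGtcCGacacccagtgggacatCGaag

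CG dinucleotides numbered 24 in the Cbx8 promoter, 38 in Phf19, 34 in Pcgf5 and 31 in Ezh2, so the unmarked Ezh2 promoter held more than the Cbx8 promoter. Promoter entries were matched for 26 of the 31 genes, 35 promoters in all, and none was used for Epop, Cbx2, Pcgf1, Rybp and Yaf2. The median CG count was 24 in the 35 promoters, against 13 in 21263 promoters of all protein-coding genes. It was 24 in the 7 promoters with a peak in at least 1 library and 23.5 in the 28 with none. By median, CG content in this gene family was thus above that of all promoters whether or not a peak lay there. Single promoters with no peak held as few as 2 CG. In the 3 promoters with a peak in at least 4 libraries the median was 34, and this difference was not tested. Peaks reached 20% of the 35 promoters in at least 1 library, against 14.2% of all promoters. The E2F-type motifs TTTCCCGC and TTTGGCGC were searched on both strands: the first was present in 2 of the 35 promoters (Phf19 and Suz12) and 1.41% of all, the second in 1 (Ezh2) and 0.635% of all.

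None of the PRC2 core genes had a peak within 2.5 kb in any library. Ezh1 and Ezh2 encode the methyltransferase, Suz12 its scaffold, Eed the reader of the mark, and Rbbp4 and Rbbp7 histone-binding subunits. Across the 12 libraries the nearest peak came no closer than 317 kb to Eed, 51.9 kb to Ezh2, 31.2 kb to Rbbp7, 16.6 kb to Suz12, 16.1 kb to Rbbp4 and 6.81 kb to Ezh1. Unmarked core genes nonetheless had marked neighbours: Cntnap1 lies 0.391 kb from Ezh1 and was marked in 12 libraries, and Sync adjoins or overlaps Rbbp4 and was marked in 9. The RING genes, which encode the ubiquitin ligases of PRC1, had their nearest peak at 16.0 kb for Ring1 and 68.0 kb for Rnf2. These distances were not compared with those of all genes.

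Phf19 was the most often marked PRC2 gene. It encodes a Polycomb-like protein that helps PRC2 bind chromatin and lies at chr2:34893752-34914353 on the minus strand. Peaks covered 4.76, 0 and 24.5% of the gene with its flanks in B6 without vitamin C, 20.1, 6.42 and 29.5% in B6 with vitamin C, 31.4, 0 and 23.1% in 129 without vitamin C, and 41.4, 47.9 and 32.2% in 129 with vitamin C. The 2 libraries at 0 were both without vitamin C and were the 2 shortest lists of the 12, with 748 peaks in B6 without vitamin C replicate 2 and 1388 in 129 without vitamin C replicate 2. With lists cut to equal length Phf19 was marked in 0 libraries, and the part of list length in its values was not tested further. By covered share the groups overlapped in B6, while in 129 all 3 libraries with vitamin C lay above all 3 without. A peak overlapped the 300-base promoter shown above in 9 libraries. The widest peak measured 1.08 to 12.2 kb (median 6.83 kb over the 10 marked libraries). In signal Phf19 sat in the middle of the lists: its strongest peak by total signal ranked at a median of the 56.7th percentile, over a range of 11.3 to 79.4.

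Covered share of Phf19 averaged 9.74 ± 13.0% in B6 without vitamin C and 18.7 ± 11.6% in B6 with vitamin C, and 18.2 ± 16.3% in 129 without and 40.5 ± 7.86% in 129 with vitamin C (SD, n = 3 each). The difference without minus with vitamin C was -15.6 percentage points over both backgrounds. It had an unadjusted p of 0.05 by a two-sided exact permutation test of diet labels within background, where 400 relabellings allow no p below 0.005. Adjusted over all 21887 genes by Benjamini-Hochberg, p was 1 by the same exact test, and so the difference did not pass the test. Phf19 was marked in 4 of 6 libraries without vitamin C and 6 of 6 with it, and in 5 of 6 B6 and 5 of 6 129 libraries.

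Epop, at chr11:97627387-97629716, encodes an adaptor that links PRC2 to elongin proteins, and was marked in 4 libraries. Peaks covered 0, 0 and 96.5% of it in B6 without, 0, 0 and 30.6% in B6 with, 43.0, 0 and 30.6% in 129 without, and 0, 0 and 0% in 129 with vitamin C. In 3 of the 4 libraries the peak lay over its high-coordinate end, and in B6 without vitamin C replicate 4 it spanned the whole gene. The peaks measured 3.02 to 5.98 kb and were weak, at the 8.99th to 20.3rd percentile of total signal. Its nearest annotated neighbour, Mllt6, lies 33.4 kb away and was marked in 9 libraries. Epop was thus 1 of 2 members marked in more libraries without than with vitamin C (3 and 1), and the exact permutation test gave an unadjusted p of 0.56.

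Jarid2 carried a narrower kind of peak than the other marked genes. It encodes a DNA-binding subunit that recruits and stimulates PRC2. A narrow peak of 515, 472 and 515 bp was called in the 3 B6 libraries with vitamin C and in 0 of the other 9 libraries. It began at the same base in all 3 lists, at chr13:44869572-44870086 in the longest form, 138.8 kb into the 190.9 kb gene, and exon positions were not used here. It covered 0.245 to 0.267% of the gene with its flanks. Its maximum signal was at the 97.2nd to 99.1st percentile of the lists, while its total signal was at the 11.5th, 68.7th and 20.0th percentile, so it was high and narrow.

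Those 3 embryos share 1 pregnancy, and peaks with a common start were rare between them: 6 peaks began at the same base in the 3 B6 lists with vitamin C, and the Jarid2 peak is the 1 of the 6 that no peak in the other 9 lists overlapped. Peaks under 1 kb in the top 5% by maximum numbered 63, 77 and 24 in the 3 lists. Of the other 9, B6 without vitamin C replicate 1 held 111 such peaks, and the rest held 2 to 13. For the 3 B6 libraries with vitamin C, diet and pregnancy cannot be told apart. The exact permutation test for diet gave an unadjusted p of 0.10 and an adjusted p of 1. Peaks overlapped neither of the annotated Jarid2 promoters in any library.

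The other PRC2 accessory genes, Mtf2 and Phf1 (Polycomb-like proteins), Lcor and Lcorl (adaptors) and Aebp2 (a zinc finger cofactor), were at 0 in all libraries. The nearest peak came no closer than 45.8 kb to Phf1, 54.7 kb to Lcorl, 141 kb to Lcor, 251 kb to Mtf2 and 694 kb to Aebp2. Of the 3 Polycomb-like genes, then, Phf19 was marked in 10 libraries and Mtf2 and Phf1 in 0.

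Cbx8 was marked in every library. It encodes a chromodomain protein that binds H3K27me3 and lies at chr11:119036303-119040913 on the minus strand. Peaks covered 35.02, 35.9 and 100% of the gene with its flanks in B6 without vitamin C, 93.4, 84.98 and 100% in B6 with vitamin C, 100, 33.9 and 100% in 129 without vitamin C, and 100, 100 and 100% in 129 with vitamin C. The 3 lowest values all came from libraries without vitamin C, but other libraries without vitamin C were fully covered, so the groups overlapped. The difference without minus with vitamin C was -28.9 percentage points, with an exact permutation p of 0.20 unadjusted and 1 adjusted. By background it was -14.1 percentage points for B6 minus 129, with an exact permutation p of 0.28 unadjusted and 1 adjusted.

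The mark over Cbx8 formed 1 domain of which the gene is a small part. Its upstream edge lay 18.5 to 25.3 kb before the gene start and its downstream edge 6.07 to 8.55 kb past it, over a gene of 4.61 kb. The domain was 1 peak in some libraries and was broken into up to 7 peaks in others. The widest peak that overlapped the gene or its flanks was 1.84, 20.9 and 29.8 kb in B6 without, 23.4, 4.36 and 31.9 kb in B6 with, 33.3, 2.33 and 33.5 kb in 129 without, and 33.0, 33.1 and 29.5 kb in 129 with vitamin C. Where the domain was continuous it was among the strongest of its list. The strongest peak that overlapped the gene or its flanks had a median of the 99.1st percentile of total signal over the 12 libraries. The lowest was the 24.9th percentile, for a fragment of 2.33 kb in 129 without vitamin C replicate 2. A longer part of the domain there, from -21.473 to -2.665 kb of the gene start, lay outside the flanks and was not ranked.

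**Figure D2:**
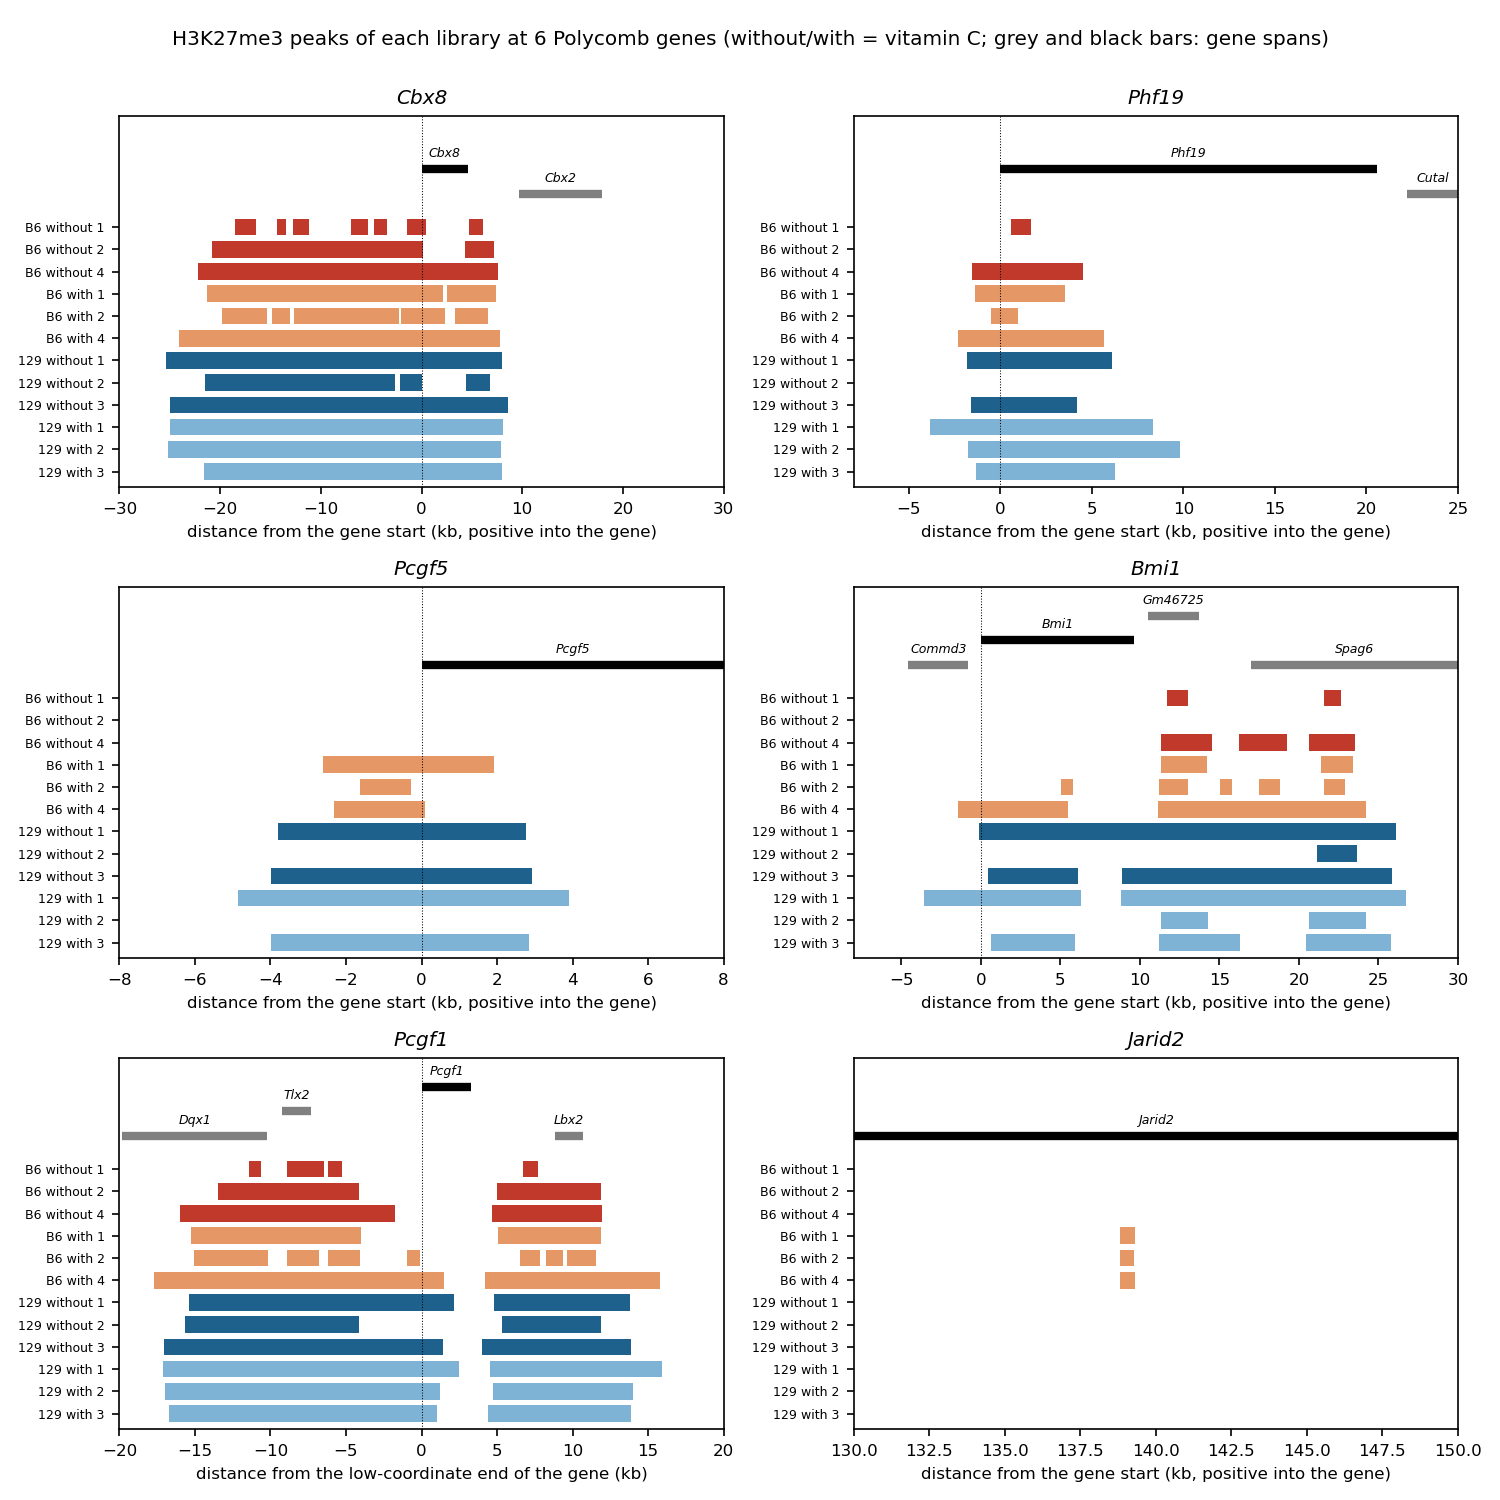
Peaks of each library at Cbx8, Phf19, Pcgf5, Bmi1, Pcgf1 and Jarid2, as bars coloured by group along distance in kb from the outermost gene start or, for Pcgf1, from its low-coordinate end, with black bars for the named gene and grey bars for its neighbours. Near Cbx8 the peaks end before Cbx2 in all 12 libraries, and near Pcgf1 they leave a gap over the high end of the gene.

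Cbx2, which encodes another chromodomain subunit, lies 5.03 kb from Cbx8, and the domain stopped short of it in all 12 libraries. The gap between the domain edge and Cbx2 was 1.09 to 3.57 kb, with a median of 1.93 kb. With flanks of 1 kb Cbx2 was therefore marked in 0 libraries, and with flanks of 2.5 kb in 9. The other canonical CBX genes Cbx6 and Cbx7 were at 0 libraries and 1 library, Cbx7 in B6 with vitamin C.

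Bmi1, at chr2:18677018-18686629 on the plus strand, encodes a PCGF subunit that stimulates RING activity. Peaks covered 0, 0 and 0% in B6 without, 0, 6.48 and 55.8% in B6 with, 92.6, 0 and 64.1% in 129 without, and 78.3, 0 and 45.7% in 129 with vitamin C. It was thus unmarked in B6 without vitamin C, and marked in 2 of 3 libraries in each of the other groups. The values are a mixture of peaks over the gene and of a domain over Gm46725 and Spag6, marked in 10 and 11 libraries. That domain began 8.84 kb from the Bmi1 start in 129 without vitamin C replicate 3 and 8.79 kb from it in 129 with vitamin C replicate 1, inside the 9.61 kb gene. In 129 without vitamin C replicate 1 the 2 were joined into a single peak of 26.3 kb. With 2.5 kb flanks Bmi1 was marked in 10 libraries, since the neighbouring domain then counted. By exact permutation test, the B6 minus 129 difference of -36.4 percentage points of covered share had p = 0.14 unadjusted and 1 adjusted, and without minus with vitamin C it was -4.94 points with p = 0.84 unadjusted.

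Polyhomeotic genes, whose products polymerize and cluster PRC1, were rarely marked: Phc2 in 2 of 3 B6 libraries with vitamin C, and Phc1 and Phc3 in 0 libraries. The Phc2 peaks lay at the first of its 3 annotated starts and measured 3.25 and 3.34 kb. They were weak, at the 1.94th and 20.4th percentile of total signal. Pcgf2, a close relative of Bmi1, was at 0 with its nearest peak 25.2 kb away.

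Pcgf1 was marked from outside as well as over its own body. It encodes the PCGF subunit of a variant PRC1 that contains BCOR, and lies at chr6:83077552-83080855 between the homeobox genes Tlx2 and Lbx2, which were marked in 12 and 11 libraries. Peaks covered 0, 0 and 0% in B6 without, 0, 16.5 and 48.8% in B6 with, 59.1, 0 and 51.3% in 129 without, and 65.6, 42.3 and 38.4% in 129 with vitamin C. No B6 library without vitamin C was marked, and every 129 library with vitamin C was.

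Over the gene itself, peaks came from the Tlx2 side. Measured from the low-coordinate end of the gene, the edge of the Tlx2 domain ran between -5.23 and 2.48 kb and the edge of the Lbx2 domain between 4.03 and 6.71 kb. Between 2.48 and 4.03 kb no list had a peak, although the gene extends to 3.30 kb. In 6 of its 7 marked libraries the peak over Pcgf1 was thus one end of the domain that covered Tlx2, and in B6 with vitamin C replicate 2 a separate peak of 0.875 kb lay beside the gene. The B6 minus 129 difference was -31.9 percentage points with an exact permutation p of 0.06 unadjusted and 1 adjusted, and without minus with vitamin C it was -16.9 points with an exact permutation p of 0.25 unadjusted.

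Pcgf5, at chr19:36348329-36460970 on the plus strand, encodes the PCGF subunit of another variant PRC1 and was marked in 0, 3, 2 and 2 libraries of B6 without, B6 with, 129 without and 129 with vitamin C. The peaks lay at the first of 3 annotated starts, shown above, and overlapped that promoter in 6 libraries. They measured 1.37 to 8.78 kb, sat at the 31.4th to 52.7th percentile of total signal and covered 0.635 to 4.28% of this long gene. Unlike Cbx8, it was therefore marked only near its start, with weak to middling signal.

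Pcgf3, a related subunit, was marked at its annotated start in 2 of the 3 libraries of 129 without vitamin C and in 0 of the other 9 outside that group, with peaks of 4.05 and 5.76 kb. Pcgf6, Rybp and Yaf2, the last 2 of which encode adaptors that bind RING subunits and mark variant PRC1, were at 0 libraries. In variant PRC1 3 of 6 genes were marked in at least 1 library and 0 reached 10 libraries.

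**Figure D3:**
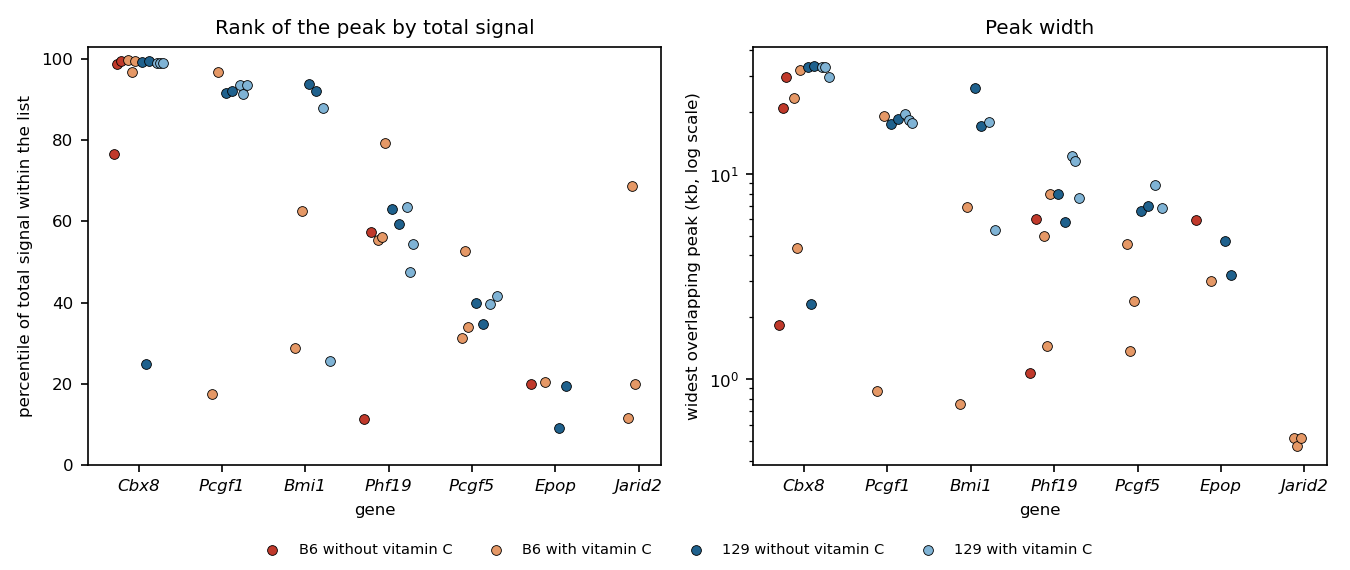
For the 6 members marked in at least 4 libraries and Jarid2, the percentile of total signal of the strongest peak within its list (left) and the width of the widest peak in kb on a log axis (right), with 1 point per marked library coloured by group. Cbx8 points lie at the wide and strong end except where its domain is fragmented, Epop points lie at or below the 20.3rd percentile, and Jarid2 peaks are the narrowest of the 7 genes.

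Between diets and with 1 kb flanks, the members' ranges did not overlap in B6 and overlapped in 129. The 3 B6 libraries with vitamin C came from 1 pregnancy, so diet and pregnancy cannot be told apart for them. The members were marked at 6.45 ± 3.23% in B6 without and 21.5 ± 6.72% in B6 with vitamin C, and at 16.1 ± 11.2% in 129 without and 14.0 ± 3.72% in 129 with vitamin C (SD, n = 3 each). All protein-coding genes were marked at 6.70 ± 3.77% and 12.3 ± 4.21% in the B6 groups without and with vitamin C, and at 11.1 ± 4.88% and 11.5 ± 2.55% in the 129 groups without and with it. In B6 the members' range was 3.23 to 9.68% without and 16.1 to 29.0% with vitamin C, without overlap, while for all genes it was 2.97 to 10.5% and 9.47 to 17.1%. Over both backgrounds the members' share without minus with vitamin C was -6.45 percentage points, and -1.08 with lists cut to equal length. With 1 kb flanks in B6, the ratio of the members' share to that of all genes was 1.69 to 1.88 with vitamin C. Without it the ratio was 0.921 to 1.08, a description with no test. In 129 the ratio was 0.594 to 1.66 without vitamin C and 1.09 to 1.39 with it, so there the ranges overlapped. With flanks of 2.5 kb the members were marked at 9.68, 9.68 and 19.4% in B6 without and 25.8, 19.4 and 32.3% in B6 with vitamin C. All genes were then marked at 6.94, 3.21 and 11.0% in B6 without and 10.0, 10.9 and 18.0% in B6 with vitamin C. The members' ranges met at 19.4%, so the separation by diet in B6 did not hold with that window.

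**Figure D4:**
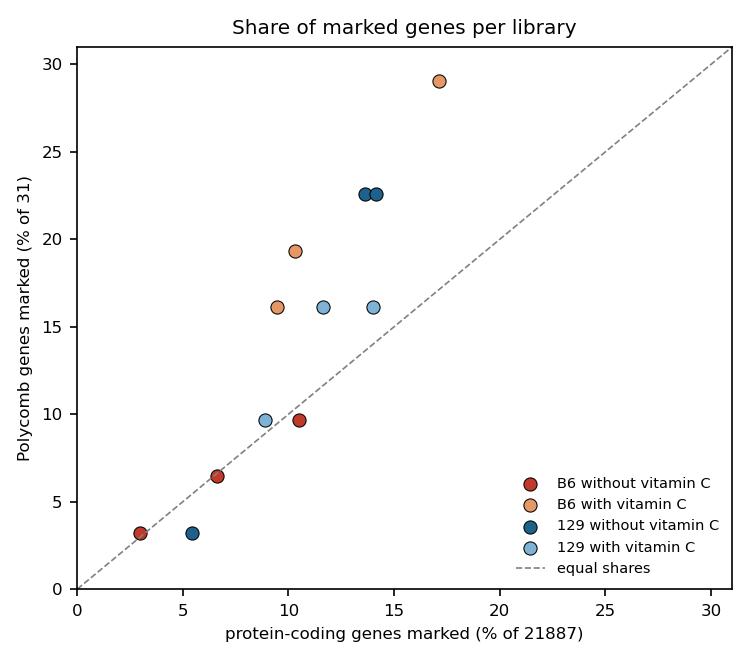
Percent of the 31 Polycomb genes marked (vertical axis) against percent of all 21887 protein-coding genes marked (horizontal axis), with 1 point per library coloured by group and a dashed line of equal shares. With 1 kb flanks, the 3 B6 libraries with vitamin C lie above the line at 16.1 to 29.0%, and the 3 B6 libraries without it lie near the line.

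Counted gene by gene, 7 members were marked in fewer libraries without than with vitamin C, 2 in more (Epop and Pcgf3) and Cbx8 in equal numbers. Among all genes 13.5% were marked in fewer and 1.89% in more libraries without vitamin C. Of the genes marked at least once, the shares with fewer were 70% for the members and 66.8% for all genes, near the background, and the shares with more were 20% (2 genes) and 9.33%. The exact permutation test called 0 of 31 members at an adjusted p under 0.05 and 0 at an unadjusted p under 0.05, against 0.0% and 0.00457% of all genes. On covered share it also called 0 members adjusted and 0 unadjusted, against 0.0% and 0.324% of all genes. With a smallest p of 0.005 and adjustment over 21887 genes, a gene could pass only if very many genes reached that p. The adjusted counts of 0 therefore say little about single members.

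Within B6, the diets were fully apart for 2 members: Jarid2 and Pcgf5 were marked in 0 of 3 libraries without and 3 of 3 with vitamin C, against 0.311% of all genes, and 0 members went the other way, against 0.0%. Within 129, 0 members were marked in 3 libraries of 1 diet and 0 of the other, against 0.00457% for marking without vitamin C alone and 0.00914% for marking with it alone. With 3 libraries against 3, the smallest possible exact p is 0.1. In B6 the 3 libraries with vitamin C also share 1 pregnancy, so diet and pregnancy cannot be told apart there. With lists cut to equal length both were lost and the count was 0. Jarid2 dropped out where at least 500 bp of peak was required, where peaks under 1 kb were left out and where gene ends or gene starts alone were scored, each leaving 1. Pcgf5 dropped out where no flank was added and where peaks below the median maximum of their list were left out, each leaving 1. When B6 with vitamin C replicate 1 was left out, Bmi1 and Pcgf1 joined them, giving 4. In 129, leaving out replicate 2 without vitamin C gave 2 (Epop and Pcgf3).

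By background, 4 members were marked in fewer B6 than 129 libraries (Bmi1, Pcgf1, Pcgf3 and Pcgf5), 3 in more (Jarid2, Phc2 and Cbx7) and 3 in equal numbers (Cbx8, Phf19 and Epop), against 10.1% and 5.43% of all genes with fewer and more. Of the genes marked at least once, the shares with fewer in B6 were 40% for the members and 49.9% for all genes. The shares with more were 30% and 26.8%, so both were near or below the background. The share of members marked averaged 14.0 ± 9.50% in B6 and 15.1 ± 7.54% in 129 (SD, n = 6 each), against 9.50% and 11.3% of all genes. For background 0 members passed the exact permutation test adjusted or unadjusted, against 0.0% and 0.0685% of all genes, and on covered share 0 adjusted and 0 unadjusted, against 0.0% and 2.67%. The difference between the diet differences in B6 and 129 was tested too, and 0 members passed adjusted or unadjusted, against 0.0% and 0.00914% of all genes. A p that misses the threshold does not show that these groups were alike.

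Of 34 other genes of the pathway, 8 (23.5%) were marked in at least 1 library, against 20.2% of all genes, 2 (5.88%) in at least 4, against 13.1%, and 1 (2.94%) in at least 10, against 5.93%. These shares are near or below the background. Sfmbt2, which encodes a Polycomb-group MBT-domain protein, was marked in 1, 3, 3 and 3 libraries of B6 without, B6 with, 129 without and 129 with vitamin C. Bcor, which encodes the corepressor of the PCGF1 complex and is X-linked, was marked in 1, 2, 2 and 3. Of its 8 marked libraries 6 were female and 2 male, of 8 female and 4 male libraries. None of the 10 genes of the H2A deubiquitinase, which removes the PRC1 mark, was marked in any library, against 20.2% of all genes marked at least once, and with 10 genes that count was not tested.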

How the data were processed

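H3K27me3 CUT&Tag was measured in single Gulo-/- headfolds, and 12 of 18 samples are used, 3 per background and diet. The deposited values are peak lists, 1 per library, with a total signal and a maximum signal per peak as the authors made them. The submitters' processing notes name cutadapt, Bowtie2, Picard, SEACR and the mm10 build. Their versions and settings, and whether IgG or a numeric threshold set the calls, were not given in the sources used here. The deposited signal was used only to rank peaks within a list, since depth is unknown and lists differ in length.

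From the lists, each protein-coding gene of the RefSeq table was scored for at least 1 bp of peak in the gene with 1 kb flanks (2.5 kb as a second window), for the percent of that span covered, and for the width and rank of its peaks. Two-sided exact permutation tests relabelled diet within background, or background within diet, with 400 relabellings and a smallest p of 0.005, and p-values were adjusted by Benjamini-Hochberg over all 21887 genes. Rank percentiles run upward, so the 99th is strong. The embryos are separate, but 3 of them share a pregnancy. Members and lists were chosen with earlier results of these data known. Members marked in at least 4 libraries are given with per-library values, all others by counts, and promoters are shown for those marked in at least 10. The scripts were tested on simulated data, and ran in Python 3.11.15 with NumPy 2.4.6, pandas 2.3.3, SciPy 1.17.1 and Matplotlib 3.10.9. Alternatives covered the window, gene ends or starts, peak width and strength, lists cut to 748 peaks each, a minimum of 500 bp, and leaving out each library.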

Additional observations from a re-analysis of the deposited data

How the results depend on the processing

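No paired analysis was possible because replicate numbers were given in accession order and pair no samples. Members called by the tests at an adjusted p under 0.05 stayed at 0 under every alternative run. With no p below 0.005 in the main run and adjustment over 21887 genes, a member could pass only if very many genes reached the smallest p. The unchanged 0 is therefore no measure of stability. Members marked in at least 10 libraries, 2 by the main rule, became 4 with 2.5 kb flanks and 1 with peaks at or above the list median maximum, with equal lists, and without the 2 short-peak libraries. Leaving out 1 library gave 1 to 2, since 10 of the 11 remaining were still required. Members apart by diet in B6, 2 by the main rule, became 1 with no flank, at gene ends, at gene starts, with peaks of at least 1 kb, with peaks at or above the median maximum and with at least 500 bp of peak, became 0 with equal lists, and ranged over 2 to 4 on leaving out a library. In 129 that range was 0 to 2. The share of members marked without minus with vitamin C, -6.45 points, ranged over -8.06 to -3.23 on leaving out a library and was -1.08 with equal lists, the alternative nearest to 0. B6 minus 129, -1.08 points, ranged over -4.30 to 0.538 on leaving out a library, and was 0.538 with 2.5 kb flanks. Directions reversed, all at adjusted p 1 by the exact permutation test, for Bmi1 marking by diet with equal lists (0.167), Pcgf5 marking by background with strong peaks (0.167) and Pcgf5 covered share by diet with strong peaks (0.283). Bmi1 covered share by diet (-4.94 points; -15.3 to 8.12 on leaving out a library) became 6.06 with strong peaks, 15.4 with equal lists, and 3.82, 8.12 and 4.31 without B6 with vitamin C replicate 4, 129 without vitamin C replicate 2 or 129 with vitamin C replicate 1. Epop covered share by background (8.92 points; -7.16 to 16.97 on leaving out a library) became -7.16 without B6 without vitamin C replicate 4. The cause of these changes was not tested. Depth is unknown, so an unmarked gene may carry a mark below the calling limit.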
